A study of Mus musculus with 28 samples.

Results

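The cytosolic ribosomal proteins are the protein parts of the ribosome outside the mitochondria, and their genes were followed here in spleen T cells of mice given rapamycin in different forms. The members were the protein-coding genes with a symbol of the form Rps or Rpl plus a number and at most an a or x, together with Rplp0, Rplp1, Rplp2, Rpsa and Rps3a1. Pseudogenes and the S6 kinases (Rps6k genes) were not members. This rule found 77 genes among the 55413 gene IDs of the deposited files, 31 of the small subunit and 46 of the large subunit, spread over 19 chromosomes. All 77 passed the filter on low counts and none was at 0 in the 27 libraries compared, so the rule lost no member.

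The RNA came from CD3+ T cells that were sorted magnetically from mouse spleens after 11 daily doses, and the mice were healthy C57BL/6J males of 8 to 12 weeks. The groups were rapamycin-loaded polymersomes injected under the skin (rPS, n = 5), rapamycin in 0.2% CMC, a cellulose suspending agent, injected under the skin (R, n = 6), oral Rapamune (RO, n = 6, of which 5 were compared), empty polymersomes injected under the skin (PS, n = 4) and untreated mice (NT, n = 7). Polymersomes are nanoscale vesicles of poly(ethylene glycol)-block-poly(propylene sulfide), and rPS, R and RO all carried 1 mg rapamycin per kg body weight. No group given CMC alone is among these samples, and nothing in the labels says that the replicates of a group came from separate cages or batches, so the p-values measure the spread between these samples only.

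A ribosome is built from a small and a large subunit, each an rRNA core with many small proteins, and growing cells spend much of their transcription on ribosome components. Nearly all of these mRNAs begin with a 5′ terminal oligopyrimidine (TOP) tract, a C followed by a run of C and T. The kinase complex mTORC1 controls their translation through this tract, with Larp1 and the 4E-BP proteins as known intermediates, and rapamycin inhibits mTORC1 after binding Fkbp1a. The control acts mainly on how much protein is made from each mRNA and not on the mRNA level, and the counts here measure mRNA only.

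The start sites are shown first because the TOP tract is what these genes are known to share. RefSeq promoter windows (build GRCm38.p6, 250 bases before to 50 bases after each annotated start) were given for 57 of the 77 members, in 67 promoters. A tract was taken as a run of at least 5 C or T counted from a C at most 5 bases from the annotated start, on the strand of the gene only. The base before that C was not looked at, in members or in other genes, so the run can be the end of a longer stretch of C and T. By this definition 29 of 67 member promoters (43.3%, Wilson 95% interval 32.1 to 55.2%) held a tract, against 18.3% of all 32851 promoters in the table. The interval takes the 67 promoters of 57 genes as independent, which promoters of the same gene are not, so it is a description and no test. With the first base allowed up to 15 bases away the shares were 64.2% and 40.9%. A promoter without a match says only that these letters are not at this annotated position.

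Windows of 30 bases, 15 before the annotated start and 15 from it on, show the tract in capitals for members described below. They are Rps6 (chr4:86857353-86857382, minus strand), Rplp2 (chr7:141447636-141447665, plus strand), Rps24 (chr14:24490663-24490692, plus strand), Rps27 (chr3:90213634-90213663, minus strand) and Rpl39 (chrX:37085208-37085237, minus strand).
Rps6: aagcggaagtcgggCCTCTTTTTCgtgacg
Rplp2: tgcgtcagcgtCTTCCTTTCgccgccggac
Rps24: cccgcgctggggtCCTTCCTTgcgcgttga
Rps27: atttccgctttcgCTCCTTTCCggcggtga
Rpl39: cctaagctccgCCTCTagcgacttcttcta
In Rps6 the run begins 1 base before the annotated start and is 10 bases long, and in Rpl39 it is 5 bases long. A T stands directly before the marked run in Rplp2 and Rps24. Rps24 has a further annotated promoter with no tract.

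The windows of Rpl10 (chrX:74270801-74270830, plus strand), Rpl26 (chr11:68901551-68901580, plus strand) and Rplp0 (chr5:115559452-115559481, plus strand) had no tract by the same definition and are given for contrast.
Rpl10: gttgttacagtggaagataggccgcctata
Rpl26: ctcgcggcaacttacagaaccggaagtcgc
Rplp0: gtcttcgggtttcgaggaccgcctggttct

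Total counts ran from 4286885 to 15696529 per library. The counts of RO replicate 7 stop on chromosome 12 and 21 of the 77 members are listed at 0 there, so that library was left out of every comparison and RO has n = 5. On chromosomes 1 to 11, which that library covers, the 54 members held 4.65% of its counts, against 3.24 to 4.51% in the other RO libraries. In 7 libraries (R replicate 3, RO replicate 3 and NT replicates 3, 4, 5, 7 and 8) the mean log2 CPM (CPM is the count scaled to an equal library total) of 16 T cell markers was below that of 15 monocyte and macrophage markers, against the label of sorted T cells. NT replicate 5 was the nearest of these to the threshold, with 6.16 for the T cell list and 6.55 for the monocyte list. Over the 20 other libraries compared, 10 B cell markers summed to 1103 to 8446 CPM, against 1733 to 5186 CPM for the 16 T cell markers. Erythroid markers summed to 143 to 10467 CPM there. In NT replicates 2 and 6 the B cell list summed to 5746 and 4026 CPM and the T cell list to 4621 and 5186 CPM. The lists differ in their genes, so these sums do not give cell numbers. Malat1 and mt-Rnr2 together took 2.0 to 4.19% of counts in rPS, R, RO and PS libraries outside RO replicate 7 and are listed at 0 in all 7 NT libraries. A difference in how the NT files were made cannot be told apart from treatment.

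The 77 genes took between 1.98 and 7.05% of a library's counts, and the widest spread was among untreated mice. The share was 3.48, 4.83, 2.9, 3.34 and 3.89% in rPS. It had a lowest value of 1.98%, a median of 3.77% and a highest of 5.06% in R, and it was 3.42, 2.95, 4.02, 3.39 and 3.17% in RO. In PS it was 2.83, 2.97, 3.59 and 3.49%, and in NT the 7 values ran from 2.05% through a median of 2.55% to 7.05%. The NT libraries fell on both sides of all rPS, RO and PS libraries. NT replicates 2 and 6 stood at 6.68 and 7.05%, above every treated library, and the other 5 NT libraries at 2.05 to 2.64%, below every rPS, RO and PS library. Group means were 3.69 ± 0.73% in rPS, 3.81 ± 1.1% in R, 3.39 ± 0.4% in RO, 3.22 ± 0.376% in PS and 3.64 ± 2.21% in NT (SD). No test was made of this sum over the members.

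**Figure D1:**
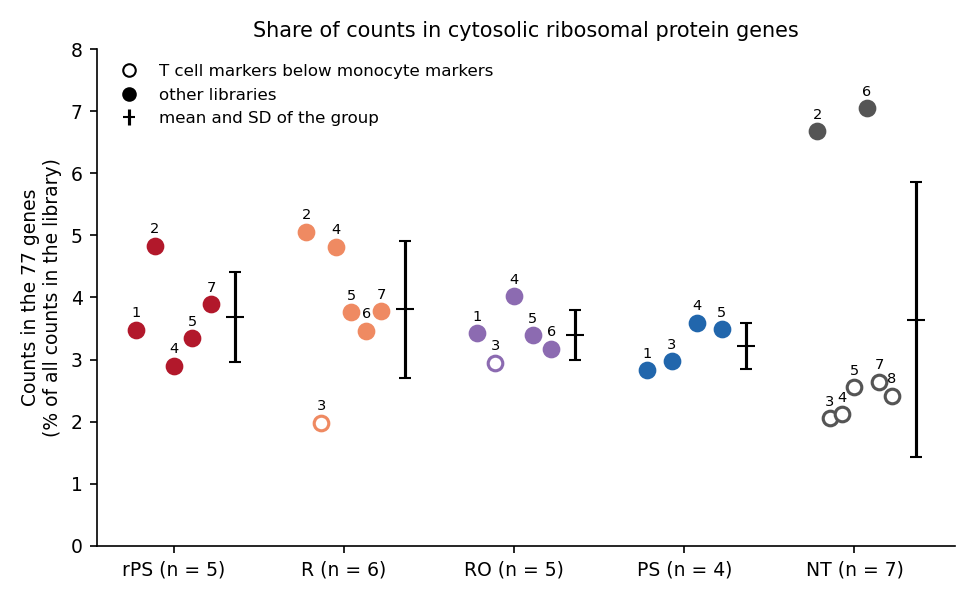
Percent of each library's counts in the 77 ribosomal protein genes, by group, with replicate numbers beside the points. Open points are libraries whose mean log2 CPM of T cell markers is below that of monocyte markers, and bars give the group mean and SD. NT replicates 2 and 6 (6.68 and 7.05%) lie above all other libraries, and the 5 open NT points lie between 2.05 and 2.64%.

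The share was low in the libraries with few T cell transcripts and high in those with many among NT. The summed level of the 16 T cell markers was 1733 to 4407 CPM in rPS, 237 to 2751 CPM in R, 765 to 3659 CPM in RO, 3003 to 4066 CPM in PS and 468 to 5186 CPM in NT. The 15 monocyte and macrophage markers summed to 268 to 3032 CPM in rPS, 1983 to 9354 CPM in R, 1084 to 11761 CPM in RO, 1096 to 1744 CPM in PS and 1251 to 12206 CPM in NT. None of the markers in either list was at 0 in any of the 27 libraries compared. Cd3e, which encodes the CD3 epsilon chain, was at 401 to 471 CPM in NT replicates 2 and 6 and at 18.5 to 76.0 CPM in the other NT libraries. The lowest share of all, 1.98% in R replicate 3, came with the lowest Cd3e, 9.58 CPM. Among the treated libraries compared, the highest T cell sum, 4407 CPM in rPS replicate 5, came with a share of 3.34%. Their highest share, 5.06% in R replicate 2, came with a T cell sum of 2751 CPM. In these bulk samples fewer T cells and less ribosomal protein mRNA per cell cannot be told apart. The part of cell content in the differences below was not tested.

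**Figure D2:**
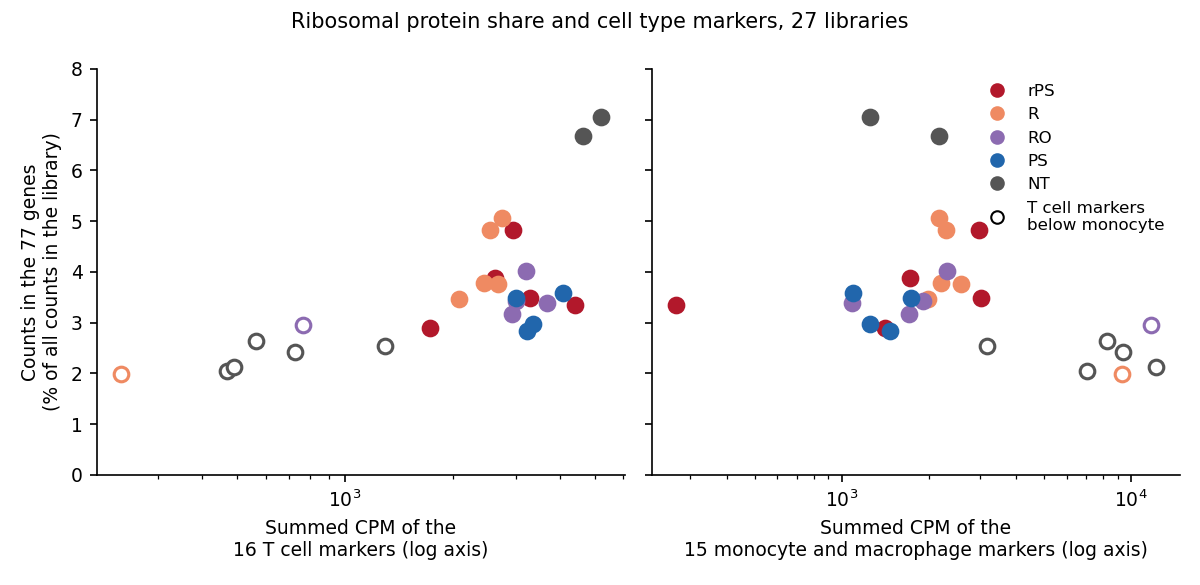
Percent of counts in the 77 genes against the summed CPM of 16 T cell markers (left) and of 15 monocyte and macrophage markers (right), both on log axes, 1 point per library. Open points have a mean log2 CPM of T cell markers below that of monocyte markers. These 7 libraries have shares of 1.98 to 2.95%, a span that also holds the filled points of PS replicate 1 (2.83%) and rPS replicate 4 (2.9%). The highest T cell sum (5186 CPM) is that of the library with the highest share (7.05%). Among treated libraries the highest T cell sum (4407 CPM, rPS replicate 5) goes with a share of 3.34%.

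The balance of the subunits varied less than the share. The ratio of small-subunit to large-subunit counts was 0.761 ± 0.0456 in rPS, 0.77 ± 0.0239 in R, 0.78 ± 0.0305 in RO, 0.766 ± 0.0162 in PS and 0.732 ± 0.0564 in NT (SD over libraries). The lowest ratio, 0.652, was that of NT replicate 4. Counts on 294 annotated ribosomal protein pseudogenes came to 0.513 to 1.2% of the members' counts, and 32 members had a fractional count in at least 1 library. How reads that match several loci were assigned is not given in the sources used here, so members with near-identical copies are uncertain to that extent.

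Against untreated mice, with all 27 libraries, 1 of the 77 ribosomal protein mRNAs passed the test. In rPS Rpl10, whose protein completes the large subunit in the cytoplasm, was lower by edgeR (quasi-likelihood, adjusted p under 0.05), and no member was higher. Of the 17132 genes tested, 21.5% were called in that comparison and 10.9% were lower. In R (0.665% of genes called, 0.0584% higher), RO (0.0117%) and PS (4.97%, with 2.46% lower and 2.5% higher) no member was called by edgeR. Unadjusted p was under 0.05 for 6 members in rPS (37.8% of all genes), 0 in R (13.9%), 3 in RO (12.7%) and 10 in PS (31.7%), so for each group the members' share lay below that of all genes. DESeq2 called 2 members in rPS (27.3% of all genes), 0 in R (2.67%), 0 in RO (1.06%) and 1 in PS (17.2%). The member medians of the log2 fold change against NT were -0.11 in rPS, 0.02 in R, -0.24 in RO and -0.34 in PS, with medians of all genes between -0.02 and 0. The 95% interval lay within a 2-fold change in both directions for 52, 66, 50 and 32 of the 77 members, again in that order.

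Rpl10 (ENSMUSG00000008682.14, on the X chromosome) had 180, 283, 248, 358 and 287 CPM in rPS, against a lowest of 159, a median of 390 and a highest of 671 CPM in NT. It had 213 to 448 CPM in R with a median of 396 CPM, and 364, 333, 382, 305 and 340 CPM in RO. In PS it had 296, 279, 381 and 383 CPM. All rPS values lay below the NT median, but the ranges overlapped: rPS replicate 5, at 358 CPM, was above NT replicates 4 and 8, at 334 and 356 CPM, and NT replicate 5 was the lowest of all libraries at 159 CPM. The log2 fold change of rPS against NT was -0.70 ± 0.25 (SE), with an edgeR adjusted p of 0.0468 by Benjamini-Hochberg over all genes. The other contrasts with NT gave -0.21 ± 0.23 for R, -0.36 ± 0.25 for RO and -0.47 ± 0.27 for PS, with no call. The call was not stable. It was lost in edgeR fits without any 1 of NT replicates 2, 3, 4, 6, 7 and 8 or of rPS replicates 1, 2, 4 and 7, and without NT replicate 5 it stood at -0.86 with adjusted p = 0.00396.

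Rps6, the small-subunit protein that S6 kinase phosphorylates downstream of mTORC1, had 610, 781, 455, 536 and 627 CPM in rPS. In R its lowest, median and highest values were 296, 592 and 809 CPM, and in RO it had 664, 503, 750, 562 and 529 CPM. In PS it had 495, 483, 513 and 568 CPM, and in NT its lowest, median and highest were 321, 416 and 1031 CPM. All treated libraries lay inside the range of NT except R replicate 3, at 296 CPM. The log2 fold changes against NT were 0.08 ± 0.27 in rPS, 0.03 ± 0.25 in R, 0.08 ± 0.27 in RO and -0.21 ± 0.29 in PS, none called. For rPS the 95% interval was -0.47 to 0.62. The counts say nothing of its phosphorylation.

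Other small-subunit members also spread widely in NT, and none of them was called. Rpsa, also known as the laminin receptor precursor, had 1128, 1673, 1578, 1078 and 1589 CPM in rPS and 1038, 970, 1274 and 1388 CPM in PS, against 660 to 2404 CPM in NT with a median of 775 CPM. Its log2 fold change was 0.19 ± 0.30 in rPS against NT and 0.33 ± 0.35 in rPS against PS, neither called. Rps3, at the entry of the mRNA channel, had 1068, 1387, 631, 692 and 1154 CPM in rPS and 638, 752, 744 and 762 CPM in PS, against 356 to 1542 CPM in NT with a median of 559 CPM. Its rPS values overlapped those of PS, with an estimate of 0.50 ± 0.35. Rps4x, the X-linked form, had 1757, 1819, 503, 973 and 978 CPM in rPS and 892, 912, 888 and 866 CPM in PS (0.50 ± 0.31, not called). In Rps3 and Rps4x, and in Rpl5 and Rpl23 of the large subunit, rPS replicate 2 was the highest and rPS replicate 4 the lowest of the 5 rPS libraries. Rps19, the gene most often mutated in human Diamond-Blackfan anaemia, averaged 382 ± 85.7 CPM in rPS, 444 ± 147 CPM in R, 348 ± 42.6 CPM in RO, 356 ± 65.2 CPM in PS and 400 ± 293 CPM in NT. Rps27a, which is made as a fusion with ubiquitin, averaged 252 ± 53.1 CPM in rPS and 300 ± 172 CPM in NT, -0.30 ± 0.27.

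In the large subunit, Rpl5 had 930, 1063, 418, 717 and 722 CPM in rPS and 512, 597, 554 and 521 CPM in PS, against 339 to 1479 CPM in NT with a median of 459 CPM. With Rpl11 it binds Mdm2 when ribosome assembly is disturbed. The estimates were 0.05 ± 0.31 for rPS against NT and 0.56 ± 0.36 for rPS against PS, and neither was called. Rpl11 averaged 337 ± 71.3 CPM in rPS, 291 ± 69.8 CPM in R, 258 ± 41.1 CPM in RO, 227 to 291 CPM in PS and 343 ± 247 CPM in NT (SD where ± is given). Rpl38, which in mouse embryos is needed for translation of some Hox mRNAs, averaged 133 ± 29.2 CPM in rPS and 163 ± 135 CPM in NT, -0.34 ± 0.39. By subunit, the median log2 fold changes in rPS against NT were -0.00 for the small and -0.14 for the large subunit, and in PS against NT -0.28 and -0.39.

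The stalk of the large subunit, made of Rplp0, Rplp1 and Rplp2, recruits elongation factors. Rplp0 averaged 1242 ± 230 CPM in rPS, 1348 ± 357 CPM in R, 1238 ± 200 CPM in RO, 1179 ± 214 CPM in PS and 1284 ± 738 CPM in NT (SD). Its log2 fold changes against NT ran from -0.25 in PS to 0.03 in R. Rplp2 had 596, 661, 661, 459 and 871 CPM in rPS and 553, 442, 694 and 704 CPM in PS, against 236 to 852 CPM in NT with a median of 352 CPM. It was the member with the highest estimate against NT in all 4 treated groups, 0.48 ± 0.28 in rPS, 0.47 ± 0.26 in R, 0.33 ± 0.28 in RO and 0.30 ± 0.29 in PS, and in none was it called. Without NT replicate 6 it passed the test in rPS (0.72, edgeR adjusted p = 0.0383), as did Rps2 (0.61, adjusted p = 0.0299). Rplp1 averaged 704 ± 126 CPM in rPS and 649 ± 450 CPM in NT, a log2 fold change of 0.06 ± 0.35.

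The lowest estimate of any member against NT was that of Rpl26 in rPS, Rps24 in R, Rps26 in RO and Rpl24 in PS. Rpl24, the gene mutated in the Belly spot and tail mouse, had 79.3, 141, 64.1, 126 and 78.0 CPM in rPS and 64.0, 90.3, 108 and 67.2 CPM in PS. In NT it had a lowest of 63.3, a median of 98.7 and a highest of 392 CPM. The high NT values were replicates 2 and 6, at 392 and 362 CPM, and the other 5 NT libraries lay at 63.3 to 114 CPM, over the same range as most treated libraries. The log2 fold change was -0.88 ± 0.39 in rPS, -0.92 ± 0.39 in RO and -1.19 ± 0.43 in PS, and the lowest of their edgeR adjusted p-values was 0.0731, in PS. DESeq2 called Rpl24 in PS (adjusted p = 0.0285). Rpl26, which in human cells binds the p53 mRNA, averaged 153 ± 37.5 CPM in rPS and 282 ± 211 CPM in NT, a log2 fold change of -0.94 ± 0.38 with adjusted p = 0.075. Rps26, which lines the channel through which mRNA leaves the small subunit, averaged 104 ± 14.5 CPM in RO and 215 ± 154 CPM in NT, -1.12 ± 0.41 with adjusted p = 0.27.

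Among the 4 groups that were given polymersomes, rapamycin or both, no member was called in any of the 4 comparisons made. Adding rapamycin to the vesicles (rPS against PS) gave a member median of 0.23 and 64 of 77 positive estimates, where 0.0817% of all genes were called. Loaded vesicles against the suspension (rPS against R) gave a median of -0.13 and 25 positive estimates, with 0.0117% of genes called. Against the oral form (rPS against RO) the median was 0.08 with 54 positive estimates and 0.0175% of genes called, and in R against RO it was 0.23 with 74 positive estimates and 0% of genes called. In these 4 comparisons no member had an unadjusted p under 0.05 (4.97, 11.1, 8.11 and 2.94% of all genes, in the order given) and DESeq2 called none (0.269, 0.438, 0.368 and 0.0759% of all genes). The estimates share libraries and their signs move together, so the counts of positive signs are descriptions only, and the 3 positive medians did not hold in every alternative fit. The fits give 95% intervals within a 2-fold change for 45 members in rPS against PS, 51 in rPS against R, 56 in rPS against RO and 48 in R against RO, so for the remaining members a 2-fold difference was within the interval.

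The lowest estimates of any member in rPS against PS and in rPS against R were those of Rps21. Rps21, a small-subunit protein, had 36.8, 74.4, 93.3, 82.9 and 142 CPM in rPS, against 102, 72.1, 213 and 213 CPM in PS and 27.1 to 292 CPM in R with a median of 160 CPM. Its log2 fold change was -0.75 ± 0.62 against PS and -0.91 ± 0.57 against R, both with wide errors and not called. Rpl23, a large-subunit protein that can bind Mdm2, had 902, 1073, 222, 592 and 483 CPM in rPS and 451, 530, 443 and 328 CPM in PS, 0.64 ± 0.37. The rPS values of Rpl23 span more than the difference from PS. Rpl4 gave 0.44 ± 0.25 and Rpl21 gave 0.59 ± 0.34 in the same comparison, and Rps26 gave 0.65 ± 0.41 in R against RO. Rps6 differed by 0.29 ± 0.31 between rPS and PS, by 0.05 ± 0.27 between rPS and R and by 0.00 ± 0.29 between rPS and RO.

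**Figure D3:**
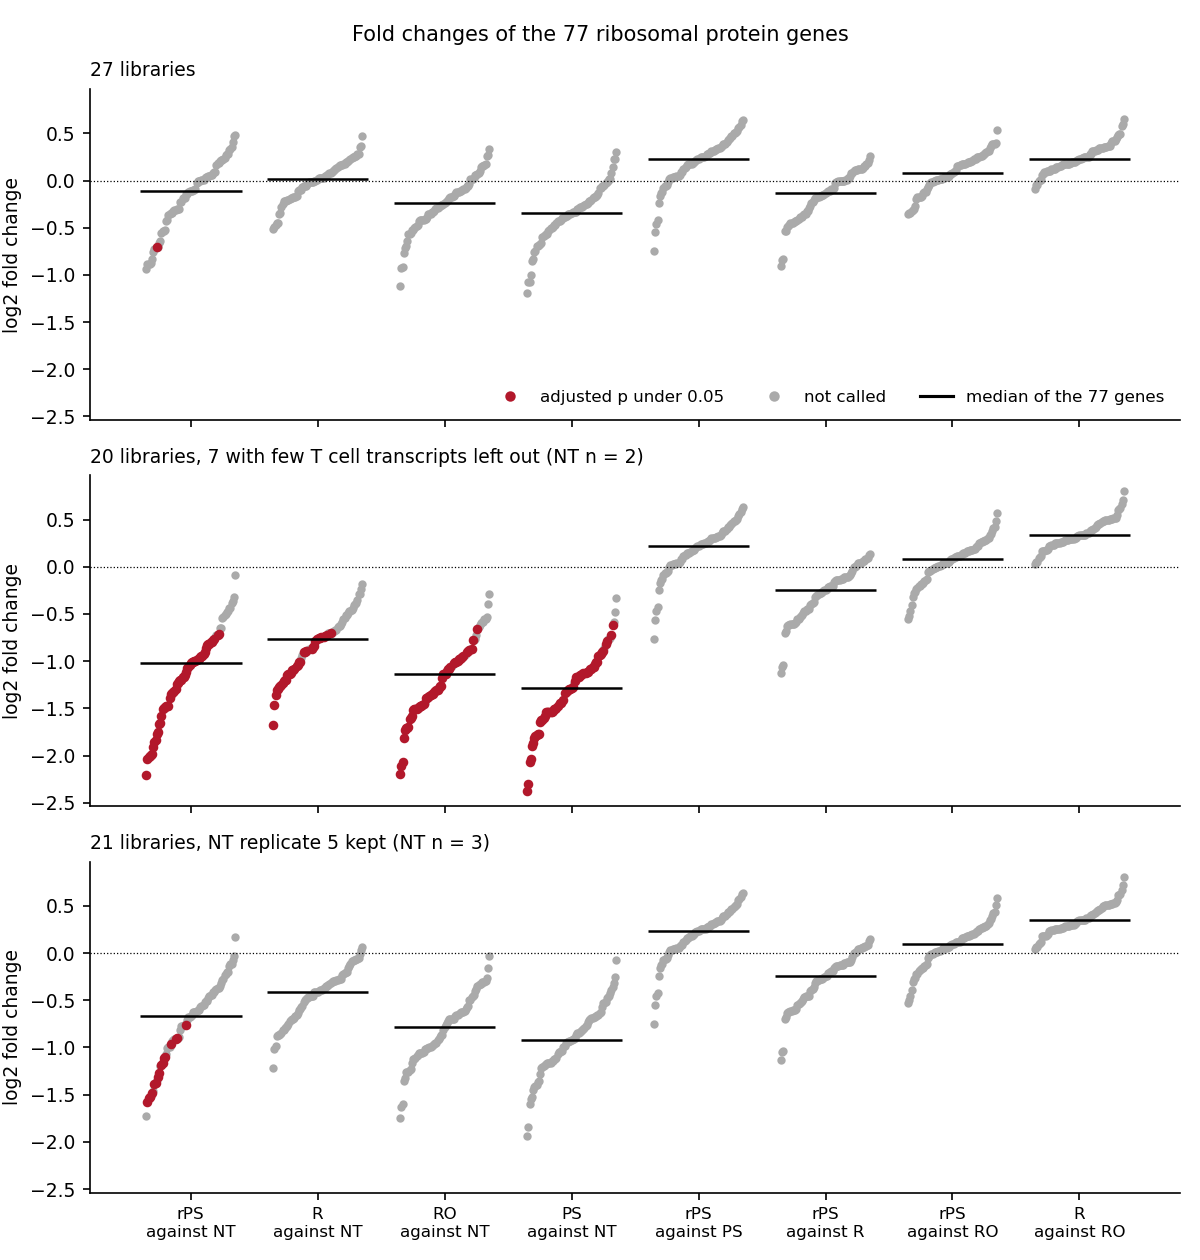
log2 fold change of each of the 77 genes in 8 comparisons, sorted within each comparison, from the edgeR fits on 27 libraries (top), without the 7 libraries poor in T cell transcripts (middle) and with NT replicate 5 kept among them (bottom). Red points have an adjusted p under 0.05 and black lines are medians. Against NT the medians are -0.34 to 0.02 at the top, -1.28 to -0.76 in the middle and -0.92 to -0.41 at the bottom.

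The contrast with untreated mice depended on which NT libraries stood for them. When the 7 libraries with fewer T cell than monocyte transcripts were left out, NT kept 2 libraries, replicates 2 and 6, and ribosomal protein mRNAs were called lower in all 4 treated groups. edgeR called 61 of 77 members lower in rPS, where 14.7% of genes were called and 8.63% were lower. It called 38 lower in R (3.58% of genes called, 2.8% lower), 58 lower in RO (3.55% called, 2.63% lower) and 65 lower in PS (7.62% called, 4.65% lower), and none higher. The member medians were -1.02, -0.76, -1.14 and -1.28, and all 77 estimates were negative in each of the 4 contrasts. Both subunits took part, with 24 of 31 small-subunit and 37 of 46 large-subunit members lower in rPS. Since PS carried no rapamycin, the lower level against these 2 NT libraries was not limited to the groups given the drug. Among the treated groups edgeR still called no member (0.516% of genes in rPS against PS, 0.23% in rPS against R, 0.0803% in rPS against RO and 0% in R against RO), and 15, 28, 3 and 24 members had an unadjusted p under 0.05, against 1750, 2613, 1506 and 1027 of the 17425 genes tested in that fit.

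These counts rest on 2 NT libraries. With NT replicate 5 kept beside them, edgeR called 16 members lower in rPS (2.3% of genes lower), 0 in R (0.206%), 0 in RO (0%) and 0 in PS (0%), with medians of -0.67, -0.41, -0.78 and -0.92. Unadjusted p was under 0.05 for 44, 18, 51 and 63 members, against 21.5, 8.96, 8.14 and 14.6% of all genes. DESeq2 was not run on either subset. NT replicates 2 and 6 were the 2 highest of the 27 libraries for 60 of the 77 members (77.9%), against 5.53% of all genes tested. The 17 other members included Rps2, Rps3, Rps3a1, Rps4x, Rps14, Rpl3, Rpl4, Rpl22, Rpl23 and Rplp2.

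Rps24, a small-subunit protein mutated in some human Diamond-Blackfan anaemia, had the lowest estimate of the 77 members in R, RO and PS against these 2 NT libraries. It had 242, 383, 376, 426 and 395 CPM in rPS, 347, 238, 392, 272 and 336 CPM in RO, 225, 288, 380 and 302 CPM in PS and 161 to 504 CPM in R, with a median of 469 CPM. In NT it had 1479 and 1411 CPM in replicates 2 and 6, and 137 to 295 CPM in the other 5 libraries. Over all 7 NT libraries the log2 fold changes were -0.72 ± 0.45 in rPS, -0.51 ± 0.42 in R, -0.93 ± 0.46 in RO and -1.07 ± 0.50 in PS, not called. Against replicates 2 and 6 alone, with R and RO also without replicate 3, they were -2.04 ± 0.19, -1.68 ± 0.19, -2.20 ± 0.20 and -2.38 ± 0.20, with edgeR adjusted p of 4.61e-06, 9.92e-05, 8.34e-06 and 2.04e-06.

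Members with other roles showed the same dependence to different degrees. Against NT replicates 2 and 6, Rps6 gave -0.80 ± 0.19 in rPS (edgeR adjusted p = 0.00865) and -1.08 ± 0.19 in PS (adjusted p = 0.00287). Rpl11 gave -1.11 ± 0.17 in rPS (adjusted p = 0.000576) and Rpl5 gave -0.96 ± 0.23 (adjusted p = 0.0115). Rpl13a, known from human monocytes as a silencer of inflammatory mRNA translation, gave -1.39 ± 0.24 in rPS (adjusted p = 0.00129). At the other end Rps2 gave -0.09 ± 0.22, Rplp2 gave -0.32 ± 0.23 and Rps14, which is lost in human 5q deletion syndrome, gave -0.48 ± 0.35 in rPS, and none of these passed the test.

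**Figure D4:**
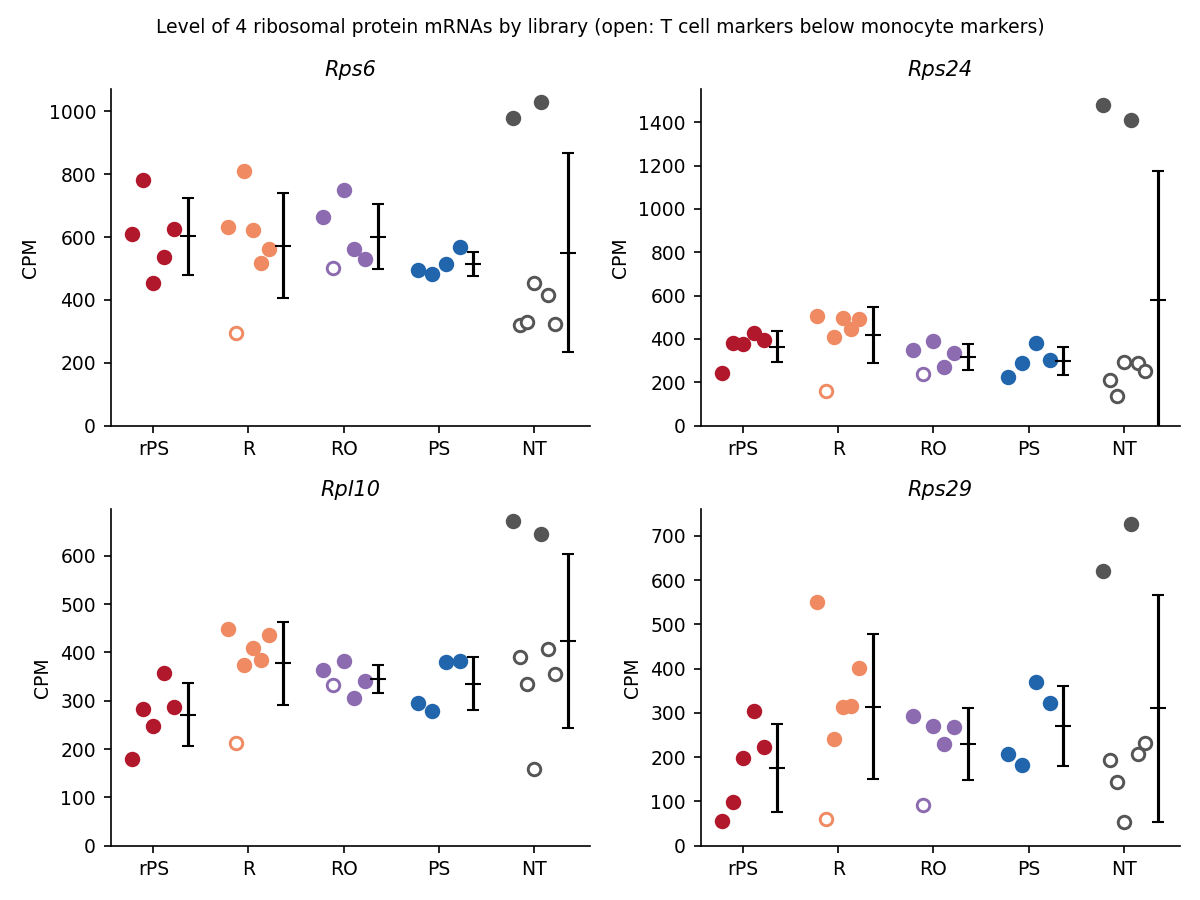
CPM of Rps6, Rps24, Rpl10 and Rps29 in each of 27 libraries by group, with the group mean and SD beside the points. Open points have a mean log2 CPM of T cell markers below that of monocyte markers. For Rps24 the 2 filled NT points (1479 and 1411 CPM) lie above all others, and for Rps29 rPS replicates 1 and 2 lie at 56.7 and 98.2 CPM.

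Relative to each other, the members kept steadier proportions than their levels. The SD of log2 CPM over the 27 libraries had a median of 0.54 over the members, and the SD of the log2 part of each member in the members' summed counts had a median of 0.25. When each library was scaled to the members' own sum, edgeR called 5 members in rPS against NT, all lower (8.34% of genes called, 5.57% lower). They were Rpl26 (-0.79 ± 0.24, adjusted p = 0.0416), Rpl10 (-0.78 ± 0.24, 0.0417), Rpl39 (-0.77 ± 0.21, 0.0274), Rpl24 (-0.73 ± 0.23, 0.0482) and Rps25 (-0.64 ± 0.18, 0.0302). Rpl39 lines the tunnel through which the new chain leaves, and Rps25 is needed for initiation at some viral RNAs. In R, RO and PS against NT none was called (0.0992% of genes in R, of which 0.0292% were higher, 0.0175% in RO and 0.42% in PS), with 1, 6 and 8 members at an unadjusted p under 0.05 (9.85, 7.8 and 19.1% of all genes), and among the treated groups none was called either (0.035% of genes in rPS against PS, with 0.0233% lower, 0.0117% in rPS against R, 0.00584% in rPS against RO and 0% in R against RO). There 3, 2, 2 and 0 members had an unadjusted p under 0.05, against 3.31, 7.19, 3.75 and 1.79% of all genes. This scaling set the median log2 fold change of all genes to -0.25 in rPS, -0.24 in R, -0.16 in RO and -0.02 in PS against NT. DESeq2 was not run with this scaling.

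The part of Rpl10 in the members' summed counts, in ppm (scaled as CPM, but to the members' sum), was 5168, 5856, 8559, 10703 and 7364 in rPS, against a lowest of 6256, a median of 14678 and a highest of 18983 in NT. In NT replicates 2 and 6 it was 10041 and 9147, within the rPS range, and it was 14678 to 18983 in NT replicates 3, 4, 7 and 8. The part of Rpl39 was 4190, 2930, 1865, 4298 and 3041 in rPS and 4236 to 6420 in NT, with a median of 5470, so its ranges met only at the edge. These 5 calls were unstable as well. Leaving out any single library of the groups left 0 to 9 calls, with Rpl39 alone called without NT replicate 3, 7 or 8 or without rPS replicate 1, and without NT replicate 5 there were 9.

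The members that varied most in their part were Rps29, Rps21 and Rps27, all small-subunit proteins with mRNAs under 400 bases. The part of Rps29 was 1628, 2032, 6791, 9135 and 5761 ppm in rPS, against 2064 to 10313 in NT with a median of 9277. It spanned 6.69-fold over the 27 libraries, Rps21 spanned 5.77-fold and Rps27 4.64-fold, while Rpl19 spanned 1.37-fold and Rps6 1.56-fold. rPS replicates 1 and 2 and R replicate 3 were among the 5 lowest libraries for Rps29, Rps21 and Rps27 alike. In rPS the low values thus came from 2 of 5 libraries. Across the 77 genes the SD of the log2 part had a Spearman rho of -0.33 with transcript length, a description over genes that share libraries. Other members under 400 bases ranked lower in this SD, with Rpl36 at rank 12, Rpl38 at 36 and Rps28, the shortest at 271 bases, at 70. Of the 10 most variable members 3 were under 500 bases, against 16 of all 77. The estimate of Rps29 in rPS against NT was -0.88 ± 0.53 on the CPM scale, and it was not called.

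**Figure D5:**
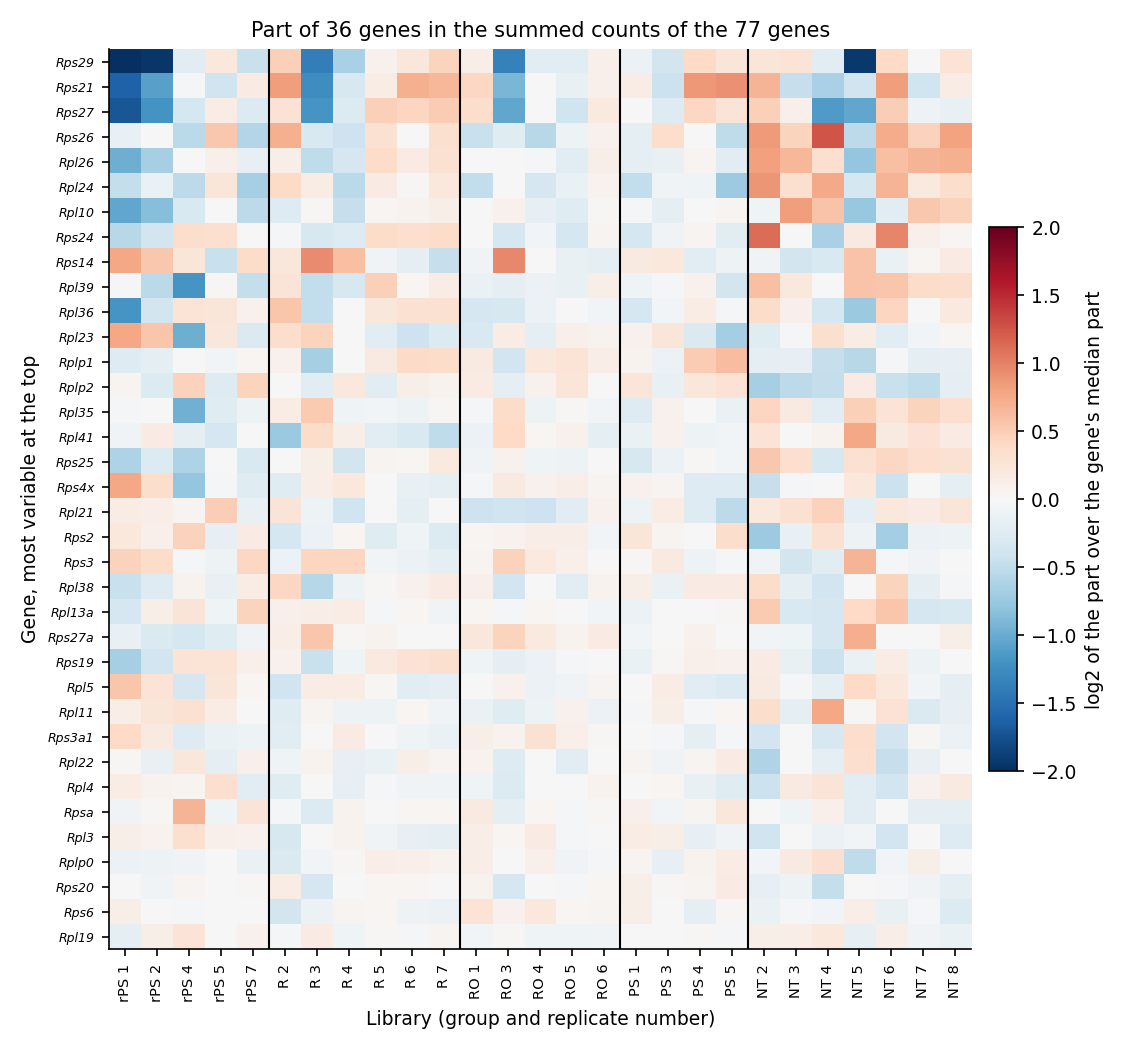
Part of each of 36 of the 77 genes in the members' summed counts, as log2 over the gene's median part, for 27 libraries in the order rPS, R, RO, PS and NT (columns) and genes from most to least variable (rows). Rps29, Rps21 and Rps27 are at the top and are low in rPS replicates 1 and 2 and R replicate 3. Rpl19, at the bottom, spans 1.37-fold.

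Per kilobase of transcript, the highest levels were those of Rplp1 (1498 CPM per kb), Rplp2 (1370) and Rps14 (1222) as means over the 27 libraries. The lowest were Rps20 (111), Rpl24 (179) and Rpl35 (189). The transcript length of Rps20 in the annotation used is 3706 bases, the longest of the members, against a median of 729 bases, so its level per kilobase depends on which transcript is counted. Rplp1 and Rplp2 belong to the stalk, and the counts give no protein amounts.

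Of 10 paralogues and fusion genes 7 passed the low-count filter. In rPS against NT edgeR called 0 of them higher and 2 lower (10.6 and 10.9% of all genes), and in the other comparisons none. Rps27l, a p53 target related to Rps27, averaged 6.64 ± 3.39 CPM in rPS and 13.9 ± 4.57 CPM in NT, a log2 fold change of -1.11 ± 0.30 with adjusted p = 0.0144. Rps27rt, which is nearly identical to Rps27, averaged 1.03 ± 0.858 CPM in rPS and 3.57 ± 3.67 CPM in NT (-1.80 ± 0.64, adjusted p = 0.0462). Its rPS values, 0.374 to 2.46 CPM, lay near the counting floor of up to 0.6998 CPM, and the NT median was 1.63 CPM with a highest of 9.23 CPM. How reads shared with Rps27 were assigned is not given, so this call is uncertain. Rpl22l1, the paralogue of the T cell development factor Rpl22, averaged 34.3 ± 7.01 CPM in rPS and 36.4 ± 24.4 CPM in NT. Rpl22 itself averaged 141 ± 22.4 CPM in rPS and 117 ± 47.7 CPM in NT, 0.22 ± 0.21. Fau, whose product carries a ribosomal protein behind a ubiquitin-like part, averaged 410 ± 128 CPM in rPS and 485 ± 241 CPM in NT. Rpl10l was at 0 in all libraries compared.

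Some genes that help to make ribosomes were higher in rPS than in NT. Of 33 ribosome biogenesis genes edgeR called 12 higher and none lower (median 0.33, where 10.6% of all genes were called higher), and in each of the other 7 comparisons none of them was called. Nop56, a box C/D snoRNP core protein, averaged 173 ± 29.7 CPM in rPS and 102 ± 18.7 CPM in NT (0.72 ± 0.14, adjusted p = 0.0017). Polr1b, a subunit of RNA polymerase I, averaged 71.3 ± 7.86 CPM in rPS and 43.6 ± 6.47 CPM in NT (0.66 ± 0.15, adjusted p = 0.00522). Without the 7 libraries poor in T cell transcripts 3 of the 33 were higher and 4 lower, with a median of 0.07, where 6.03% of all genes were higher and 8.63% lower. Whether the biogenesis genes and the ribosomal proteins differ in their response was not tested.

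Other genes of translation were called in both directions in rPS against NT, where 10.6% of all genes were higher and 10.9% lower. Of 26 translation factors and other TOP mRNAs edgeR called 3 higher and 2 lower in rPS against NT (median 0.00), among them Snhg1, a snoRNA host gene, at 95.1 ± 61.3 CPM in rPS and 41.6 ± 15.1 CPM in NT (1.17 ± 0.36, adjusted p = 0.0249). Eif3l, a subunit of initiation factor eIF3, averaged 80.9 ± 11.0 CPM in rPS and 106 ± 16.2 CPM in NT (-0.45 ± 0.13, adjusted p = 0.0166). Of 20 genes of mTORC1 and its control of TOP mRNAs 5 were higher and 1 lower (median 0.24). Tsc1, a brake on mTORC1, averaged 115 ± 9.42 CPM in rPS and 87.6 ± 17.6 CPM in NT (0.35 ± 0.09, adjusted p = 0.00887). Eif4ebp1, a translation repressor that mTORC1 inactivates, averaged 7.32 ± 1.62 CPM in rPS and 21.4 ± 14.3 CPM in NT (-1.65 ± 0.53, adjusted p = 0.0301). Of 78 mitochondrial ribosomal proteins 1 was higher and 12 lower (median -0.31), against the same shares of all genes. In the other 7 comparisons edgeR called 1 TOP mRNA lower and 1 mTORC1 gene higher, both in PS against NT, and no other gene of these 3 lists.

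Markers of other cells moved in the same comparison. In rPS against NT edgeR called 10 of 10 neutrophil markers and 8 of 8 plasma cell markers lower. It also called 6 of 15 monocyte and macrophage markers and 2 of 10 B cell markers lower. None was called of 9 tested erythroid markers and of 16 T cell markers (median 0.50). Of all genes 10.6% were called higher and 10.9% lower. All matched genes of these lists were above 0 in every library compared, with 2 exceptions. Elane, a neutrophil gene, was at 0 in some rPS, RO and PS libraries, and Tnfrsf17, a plasma cell gene, in some rPS libraries. The neutrophil list summed to 5.57 to 63.7 CPM in rPS and 21.1 to 3395 CPM in NT, and the plasma cell list to 198 to 1076 CPM in rPS and 1033 to 5564 CPM in NT. Lyz2, the lysozyme of myeloid cells, averaged 219 ± 119 CPM in rPS and 1744 ± 1412 CPM in NT. Without the 7 libraries the median of the monocyte list was -0.03 and that of the T cell list -0.84. There 9 of 16 T cell markers were lower in rPS than in NT replicates 2 and 6, against 8.63% of all genes. The 7 libraries had been chosen by these same 2 lists, so the marker values in that subset are a description and no test. The T cell markers and the ribosomal proteins were both lower there, and the part of one in the other was not tested.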

How the data were processed

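Bulk RNA-seq libraries of sorted spleen T cells were deposited as 1 table of estimated counts per library, with 55413 gene IDs each. The authors deposited expected counts that are not whole throughout, and the submitters' processing notes name Trimmomatic 0.39, STAR 2.7.5a, Cufflinks 2.1.1, Cuffdiff and the build GRCm39, with no role for each. The labels do not state the counting tool, the annotation, the strand setting or the handling of multi-mapped reads. Between 21.3 and 25.0% of the non-zero values were fractional, and counts were rounded before testing. Although the design mentions single cells, every file holds 1 bulk column of counts.

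Symbols, chromosomes, biotypes and lengths came from GENCODE M21 (GRCm38), which matched 94.1% of the IDs, and start sites from the RefSeq promoter table of GRCm38.p6. CPM is the count over the library total. The tests used edgeR 4.0.16 in R 4.3.3 (robust quasi-likelihood fit, TMM, filter on low counts by group, Benjamini-Hochberg adjusted p under 0.05 over all 17132 genes) on 27 libraries of all 5 groups, without RO replicate 7. Fold changes are given as log2 with their SE. A further fit scaled each library to the members' summed counts. DESeq2 1.42.0 was an alternative. The scripts were tested on simulated data for rPS against NT. There edgeR recovered 50% of 100 genes raised 2-fold and 78% of 100 genes raised 4-fold, with 4 false calls. The changed genes were drawn from all genes that passed the filter, so these shares are not those of the members. Counting error is small for these genes: a count of 0 would allow at most 0.1911 to 0.6998 CPM.

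The members, the other gene lists and the genes named were chosen with earlier results of these data known. Members were named by a rule: in each comparison up to 6 called in each direction, or the 3 with the smallest p where fewer than 3 were called, up to 4 in each direction relative to the members' sum, the 3 highest and 3 lowest per kilobase, and a set chosen by role. Of each other list, up to 4 with the smallest p could be named. Rps2, Rps24, Rps25 and Rpl19, and the other genes given as extremes or as examples of a list, were named after their values were seen.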

Additional observations from a re-analysis of the deposited data

Results flagged for a closer look

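Of 175 values by group that were examined for a library standing apart from its group, 7 did so, and chance gives about 1 in 20. In rPS, Rpl11 was at 463 CPM in replicate 2, against 292 to 316 CPM in the other rPS libraries. Rpl36 was at 50.5 CPM in rPS replicate 1, against 115 to 136 CPM in the others. In R, replicate 3 was low for Rpl10 (213 CPM, the others 373 to 448 CPM), Rplp1 (256 CPM, the others 866 to 1091 CPM) and Rps19 (158 CPM, the others 456 to 582 CPM). R replicate 3 also had the lowest summed level of T cell markers, 237 CPM, and its part in these values was not tested. Rpl41 was at 740 CPM in R replicate 4, against 362 to 459 CPM in the other R libraries. In PS, Rps3 was at 638 CPM in replicate 1, against 744 to 762 CPM in the others.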

How the results depend on the processing

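In rPS against NT edgeR called 1 member (21.5% of all genes) and DESeq2 called 2 (27.3%). With all 28 libraries (2020 of 17182 genes called) or the replicate number as a block (1810 of 17132 genes called), edgeR called 0 members. It also called 0 with library sizes free of immunoglobulin, haemoglobin and mitochondrial genes, without the filter on low counts, or with only the 2 groups compared. Leaving out 1 library gave 0 to 4, and 27.3% of all genes were called without NT replicate 5. Without the 7 libraries poor in T cell transcripts the counts were 61 in rPS, 38 in R, 58 in RO and 65 in PS, and with NT replicate 5 kept the count in rPS was 16. In PS, DESeq2 called 1 member (17.2% of all genes). Leaving out 1 library gave 0 to 4 there, and 16.9% of all genes were called without NT replicate 5. Relative to the members' sum, rPS against NT had 5 calls, 0 with all 28 libraries, without the filter, with the replicate block or with NT replicate 5 kept, 0 to 9 without 1 library, and 25 without the 7 libraries (7 higher and 18 lower), where R had 13 (4 and 9), RO 20 (9 and 11) and PS 19 (8 and 11). In that subset this scaling called 63.5, 46.7, 66.7 and 74.4% of all genes in the same order and set their median log2 fold change to 1.04, 0.83, 1.11 and 1.25. PS had 0 to 1 without 1 library in that scaling. Estimates turned round without the 7 libraries to -0.96 for Rpl5, -0.94 for Rplp1, -0.80 for Rps6 and -0.78 for Rpsa in rPS, to -0.72 for Rplp0, -0.77 for Rps19, -0.73 for Rps6 and -0.75 for Rpsa in R, to -0.88 for Rps27a and -0.78 for Rps6 in RO and to -0.62 for Rpl22 in PS. Of 4197 values of named members under the alternatives, these 11 changed sign with a call, 4031 kept direction and call, 16 lost a call, 67 gained one and 72 moved otherwise. The cause was not tested, but NT then holds 2 libraries. Over 38 same-numbered pairs the correlation of deviations from the group means ran from -0.357 to 0.763 (median 0.0422), with 14 pairs over 0.1. Pairs with different numbers were not set beside them, so whether the replicate number pairs libraries was not tested. With the replicate number as a block the member median was -0.06 in rPS against PS (33 of 77 positive) and -0.10 in rPS against R (26). It was -0.12 in rPS against RO (28) and 0.00 in R against RO (40). The 3 positive medians of rPS against PS, rPS against RO and R against RO were thus lost in this fit. They stayed positive with DESeq2 (0.24, 0.10 and 0.24) and without the 7 libraries (0.22, 0.08 and 0.34). The share of promoters with a tract was 64.2% with 15 bases allowed. All members were far above the counting floor in every library compared, so depth sets no limit here, while 2 NT libraries carry the comparison in the subset. The settings with NT replicate 5 kept and with RO replicate 7 kept for genes with counts there were added after the data were seen.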
